A study of Mus musculus with 34 samples.

Results

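Distal genomic sites listed as peaks of both the deacetylase HDAC3 and the homeobox factor PROX1 were examined in mouse liver. They had no called peak of the nuclear receptor HNF4α, and HNF4α binding below the limit at which peaks were kept is not excluded. The sites were chosen by the peak lists themselves: a site had the same position in the HDAC3 and the PROX1 list, was centred more than 1 kb from every transcription start site (TSS) of a protein-coding gene, and shared no base with an HNF4α peak. This gave 5993 sites among 28631 HDAC3 and PROX1 peaks, or 32.5% of the 18454 distal co-bound peaks. By the methods, an overlapping peak needed less signal of the other factor than the limit set for that factor's own peaks. Where the lists follow this rule, a co-bound site can lie under the limit of a factor. Absence from a list does not exclude weaker binding. The lists come from ChIP-seq of livers of male C57B/6 mice aged 10 weeks, taken at zeitgeber time 10, where the labels give 3 HDAC3 and 3 PROX1 libraries from control mice and 2 HNF4α libraries from mice with a floxed *Hnf4α* gene. The HNF4α libraries are therefore from other animals, and by the methods floxed controls received an AAV8 vector in which the TBG promoter, which is active in hepatocytes, drives a fluorescent protein. Libraries were pooled before peaks were called and the HDAC3 and PROX1 lists hold positions only, so the spread between livers and the depth behind a site are unknown. All intervals below are 95% intervals that cover counting error over sites, and the p-values compare sites, which are not replicates and of which neighbours are not independent.

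HDAC3 is the catalytic subunit of nuclear receptor corepressor complexes, which remove acetyl groups from histones at genes that transcription factors bring them to. PROX1 is a homeobox factor of hepatocytes and lymphatic endothelium that acts largely as a co-regulator of nuclear receptors. HNF4α is the nuclear receptor that maintains the hepatocyte programme together with C/EBP, FOXA and ONECUT factors, and it binds direct repeats of a hexamer spaced by a single base (DR1). Other receptors prefer other spacings, such as DR2 for the clock repressor Rev-erbα and DR4 for LXR, CAR and the thyroid hormone receptor.

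Windows of 200 bp on the centres of sites without an HNF4α peak are printed below, each picked for a match to a named motif. Whether such a motif stands in place of an HNF4α motif was not tested. They are read on the forward strand of mm9 (the NCBIM37 assembly), and capitals mark the match to the motif named. For each of the first 5 motifs the site shown is the one nearest to the TSS of a gene named below, and the other sites were added after their values had been seen. The C/EBP window, chr3:153606048-153606247, lies in an intron of *Acadm*, which encodes a medium-chain acyl-CoA dehydrogenase, 1262 bp downstream of the nearest TSS. The FOXA window, chr9:46038860-46039059, lies between genes 2297 bp downstream of an *Apoa1* TSS. The NFI window, chr10:59411698-59411897, lies 2720 bp downstream of a TSS of *Ddit4*, a gene induced by glucocorticoids, and between genes. The ONECUT window, chrX:74754608-74754807, lies 1644 bp upstream of *Tbl1x*, which encodes a subunit of the HDAC3 complex. The DR1 window, chr11:101225825-101226024, lies 2950 bp upstream of *G6pc*, which encodes glucose-6-phosphatase, and holds 2 matches that overlap. The DR4 window, chr11:98634341-98634540, is in an intron of *Nr1d1*, the gene of Rev-erbα. The STAT window, chr13:53075048-53075247, is in an intron of *Nfil3*, the gene of a clock repressor.
Acadm C/EBP site: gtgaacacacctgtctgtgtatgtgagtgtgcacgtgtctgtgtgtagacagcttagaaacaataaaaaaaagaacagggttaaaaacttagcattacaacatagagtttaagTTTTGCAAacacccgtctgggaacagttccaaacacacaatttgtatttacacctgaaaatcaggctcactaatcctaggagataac
Apoa1 FOXA site: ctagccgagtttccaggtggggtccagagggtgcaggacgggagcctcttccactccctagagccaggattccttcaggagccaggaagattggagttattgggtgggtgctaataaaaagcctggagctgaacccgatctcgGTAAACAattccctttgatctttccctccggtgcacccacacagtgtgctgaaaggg
Ddit4 NFI site: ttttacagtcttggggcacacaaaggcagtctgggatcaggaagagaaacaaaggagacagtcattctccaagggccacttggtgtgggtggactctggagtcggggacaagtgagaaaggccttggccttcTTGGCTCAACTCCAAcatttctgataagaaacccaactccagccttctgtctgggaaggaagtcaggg
Tbl1x ONECUT site: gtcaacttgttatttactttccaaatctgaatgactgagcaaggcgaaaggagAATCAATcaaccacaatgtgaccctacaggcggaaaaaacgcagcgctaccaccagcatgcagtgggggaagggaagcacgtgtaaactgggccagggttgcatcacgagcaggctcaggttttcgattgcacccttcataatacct
G6pc DR1 site: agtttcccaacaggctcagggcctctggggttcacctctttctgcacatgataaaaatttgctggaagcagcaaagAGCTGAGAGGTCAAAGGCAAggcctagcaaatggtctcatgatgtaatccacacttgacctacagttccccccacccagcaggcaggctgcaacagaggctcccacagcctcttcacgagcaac
Nr1d1 DR4 site: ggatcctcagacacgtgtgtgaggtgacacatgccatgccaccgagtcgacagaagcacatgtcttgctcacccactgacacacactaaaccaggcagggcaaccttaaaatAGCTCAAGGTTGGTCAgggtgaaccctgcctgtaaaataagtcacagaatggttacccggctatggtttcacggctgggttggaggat
Nfil3 STAT site: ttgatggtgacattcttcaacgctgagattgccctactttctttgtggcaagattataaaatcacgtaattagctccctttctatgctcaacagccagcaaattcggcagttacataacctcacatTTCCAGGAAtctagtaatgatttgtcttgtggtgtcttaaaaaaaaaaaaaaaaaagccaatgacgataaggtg

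No site near a named gene held the core of the HNF4α motif, CAAAGTCCA. Among the sites considered for printing, the one with a core match nearest to any TSS was chr1:174240256-174240455, in an intron of *Igsf8* and 1726 bp from the nearest HNF4α peak. It is set beside the triply bound site with a core match nearest to a TSS of a named gene, chr9:69132963-69133162. That site lies 4426 bp upstream of a TSS of *Rora*, which encodes a clock activator.
Igsf8 HNF4α core site: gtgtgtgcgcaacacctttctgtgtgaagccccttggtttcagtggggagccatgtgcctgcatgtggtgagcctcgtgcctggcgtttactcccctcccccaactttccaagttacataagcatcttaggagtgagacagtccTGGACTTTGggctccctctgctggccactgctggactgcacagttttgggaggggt
Rora HNF4α core site, triply bound: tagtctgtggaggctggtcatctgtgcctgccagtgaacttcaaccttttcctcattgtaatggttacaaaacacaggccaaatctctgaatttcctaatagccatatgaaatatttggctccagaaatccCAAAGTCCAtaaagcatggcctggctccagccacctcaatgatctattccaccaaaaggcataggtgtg

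The limits of the rule divide a continuous range of positions. Of the HNF4α-lacking sites, 21 lay less than 10 bp from an HNF4α peak and 181, or 3.02%, less than 100 bp. On the other side of the limit, 29 of the 12461 distal triply bound sites shared at most 10 bp with an HNF4α peak and 214 at most 50 bp, whereas the median was 149 bp. At the TSS limit, 46 sites lay within the first 100 bp beyond it, and 45 co-bound peaks without HNF4α lay within the last 100 bp before it. A site next to an HNF4α peak and a triply bound site at its edge are thus nearly alike in position.

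The gap between the HNF4α-lacking sites and HNF4α peaks varied widely, and random positions were not measured beside it. The median gap to the nearest HNF4α peak was 4580 bp, with quartiles of 1135 and 19178 bp. A gap under 10 kb was found for 3856 sites, or 64.3%. At distal PROX1-only sites without HNF4α the median was 7004 bp, and at distal HDAC3-only sites without HNF4α it was 11674 bp. The classes spread over the same range of gaps, with the co-bound sites shifted to shorter ones.

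**Figure D1:**
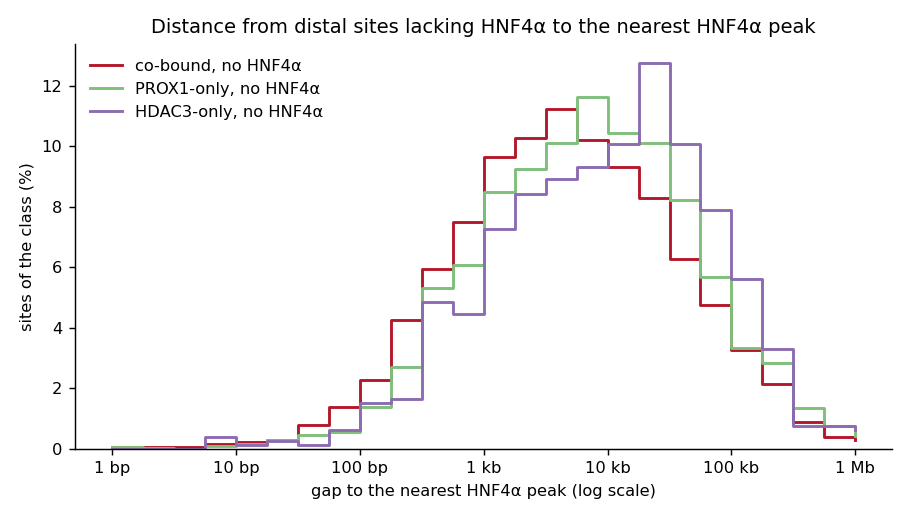
Share of each class of distal sites lacking HNF4α (y axis, %) by the gap between the site and the nearest HNF4α peak (x axis, log scale, 4 bins per factor of 10), for co-bound, PROX1-only and HDAC3-only sites. The median gaps were 4580 bp, 7004 bp and 11674 bp in this order, and all 3 curves overlap.

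Motif content, which the rule did not use, was read as the share of windows with a match on either strand to 1 of 21 consensus motifs, and the same was done 2 kb to either side of each site as background. At the HNF4α-lacking sites the HNF4α core was rare. It was found in 25 of 5993 windows, or 0.417% (95% CI 0.283 to 0.615), against 0.325% of the flanks, a share that lies within this interval. Of the triply bound windows, 4.04% (95% CI 3.71 to 4.40) held it, a difference of -3.63 percentage points (95% CI -4.01 to -3.24). A low share of this motif at sites selected on the absence of HNF4α peaks describes the selection and is no independent result.

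The other nuclear receptor motifs were above their flanks at the HNF4α-lacking sites. The repeats are built of 2 copies of AGGTCA, or of a copy and its reverse complement, with at most 2 mismatches in all. DR1, AGGTCANAGGTCA, which HNF4α shares with RXR and PPARα, was found in 8.06% of windows (95% CI 7.40 to 8.78) against 3.19% of flanks. At triply bound sites the DR1 share was 15.5%, a difference of -7.42 percentage points (95% CI -8.35 to -6.47). Since HNF4α binds DR1, this difference too describes in part the selection on HNF4α peaks and is no independent result. By chromosome, the DR1 share ranged from 4.62% to 10.1% at the HNF4α-lacking sites and from 12.2% to 18.4% at the triply bound sites.

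DR4, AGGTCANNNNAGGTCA, showed another order. It was found in 6.69% (95% CI 6.09 to 7.35) of the HNF4α-lacking windows and in 2.19% of their flanks, a ratio of 3.06. The DR4 share of triply bound windows was 5.88%, and the difference of 0.81 percentage points (95% CI 0.07 to 1.58) did not pass the adjusted threshold (Pearson's chi-square test, two-sided, adjusted p = 0.0792). The inverted repeat IR1, AGGTCANTGACCT, bound by the bile acid receptor FXR, was found in 3.89% against 4.03% (chi-square adjusted p = 0.715). The monomer site TAGGTCA (RORE), where ROR activators and Rev-erbα compete, was found in 5.57% against 4.78% (chi-square adjusted p = 0.0566). For DR4, IR1 and RORE, then, no difference between the 2 co-bound classes was resolved. DR2, AGGTCANNAGGTCA, was lower at the HNF4α-lacking sites, with 5.96% against 7.22% (chi-square adjusted p = 0.00419), but the sign turned with 1 mismatch fewer (0.15 percentage points) and the call was lost in the second and the third block (chi-square adjusted p = 0.799 and 0.690). RORE letters can form the second copy in a repeat, and 57 of the 334 RORE windows also held DR1 and 52 also DR4.

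C/EBP, TTGCNNAA, was the most frequent hepatocyte factor motif and did not separate the 2 co-bound classes. It was found in 25.4% (95% CI 24.4 to 26.6) of the HNF4α-lacking windows and 26.7% (95% CI 25.9 to 27.5) of the triply bound windows, against 8.37% and 8.01% of their flanks. The difference was -1.23 percentage points (95% CI -2.57 to 0.13, chi-square adjusted p = 0.129). The flanks of the HNF4α-lacking sites held the forkhead motif TGTTTAC (FOXA) in 2.71% of windows, NFI in 0.534% and ONECUT in 2.51%. FOXA was found in 8.94% against 8.04% at the 2 classes (95% CI of the difference 0.05 to 1.78, chi-square adjusted p = 0.0849), and NFI, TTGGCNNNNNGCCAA with at most 1 mismatch, in 1.90% against 1.57% (adjusted p = 0.148). ATTGATT, the ONECUT motif, was lower at the HNF4α-lacking sites, with 9.66% against 11.3% (chi-square adjusted p = 0.00206). That call was lost without the sites centred within 1 kb of the centre of an HNF4α peak (-0.99 percentage points, chi-square adjusted p = 0.119). The call was lost, too, in the first block of the list (-1.37, chi-square adjusted p = 0.0551) and when only HNF4α peaks above the median score counted (-0.31, adjusted p = 0.564). It was also lost in the second block (-0.48, chi-square adjusted p = 0.814), and in the third its sign turned (1.45).

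Counted together, 43.9% (95% CI 42.6 to 45.1) of the HNF4α-lacking windows held at least 1 of the 5 hepatocyte factor motifs, against 14.2% of their flanks. At triply bound sites the same share was 44.4% (95% CI 43.5 to 45.3). At least 1 of the 6 nuclear receptor motifs was found in 24.6% (95% CI 23.5 to 25.7) of the HNF4α-lacking and 33.0% (95% CI 32.2 to 33.9) of the triply bound windows. The intervals of the 2 classes overlapped for the first share and did not for the second, which includes the HNF4α core and DR1 and is therefore no independent result either. None of these 11 motifs was found in 2427 of the HNF4α-lacking windows, or 40.5%, and in 34.9% of the triply bound windows. That contrast also includes the HNF4α core and DR1 and is no independent result. C/EBP together with another hepatocyte factor motif was found in 348 HNF4α-lacking windows, or 5.81%. The same share was 5.34% at triply bound, 6.82% at PROX1-only and 2.80% at HDAC3-only sites, and no difference in it was tested.

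The STAT motif, TTCNNNGAA, was higher at the HNF4α-lacking sites than at triply bound sites. It is the site of STAT5, which carries the growth hormone signal in liver. STAT was found in 686 windows, or 11.4% (95% CI 10.7 to 12.3), against 8.03% (95% CI 7.56 to 8.52) of triply bound windows. The difference was 3.42 percentage points (95% CI 2.50 to 4.37, Pearson's chi-square, adjusted p = 3.78e-13), with the same sign on 17 of 20 chromosomes. The flanks of both classes held it at about the same share, 6.31% and 6.37%. The co-bound list falls into 3 unlabelled blocks, and the STAT difference passed the threshold in the first of them alone. There STAT was in 12.9% of the HNF4α-lacking and 8.41% of the triply bound windows, a difference of 4.49 percentage points (95% CI 3.35 to 5.68, chi-square adjusted p = 2.85e-15). In the second block the shares were 8.45% and 5.81%, a difference of 2.64 (95% CI 0.51 to 4.90, chi-square adjusted p = 0.0513), and in the third 8.43% and 6.15%, a difference of 2.28 (95% CI -0.37 to 4.76, adjusted p = 0.224). The sign was the same in the 3 blocks, and whether the size differed between them was not tested. In all, 2 of 21 motifs, STAT among them, were higher at the HNF4α-lacking sites than at triply bound sites, 4 were lower, among them the core and DR1, and 15 did not pass the threshold. Among the 15 were AP-1 (TGANTCA, 10.0% against 8.95%, chi-square adjusted p = 0.0514) and the glucocorticoid receptor motif (GNACANNNTGTNC with at most 1 mismatch, 12.6% against 13.6%, adjusted p = 0.117).

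**Figure D2:**
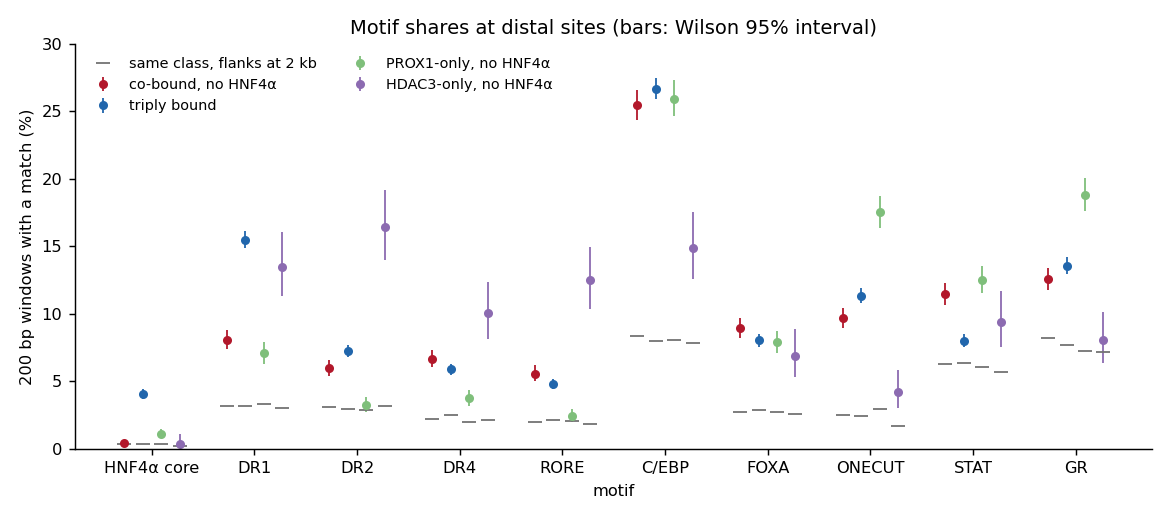
Share of 200 bp windows with a motif match (y axis, %) for 10 motifs (x axis) at distal co-bound sites lacking HNF4α, triply bound sites, PROX1-only and HDAC3-only sites lacking HNF4α; points are shares, vertical lines 95% Wilson intervals and grey dashes the flanks of the same class. The HNF4α core lies close to its flanks at the co-bound sites lacking HNF4α (0.417% against 0.325%), whereas C/EBP reaches 25.4% there and 26.7% at triply bound sites.

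Matches were centred on the sites. Within 50 bp of the centre, C/EBP had 2.01 matches per kb at the HNF4α-lacking sites and 0.491 at the outer edges of a 1 kb region, a ratio of 4.09. ONECUT had 0.793 matches per kb at the centre, 5.69 times its edges. The DR1 ratio was 2.67 at the HNF4α-lacking sites and 6.18 at the triply bound sites, where the central density was 1.12 matches per kb against 0.582. For DR4 the ratios were 3.39 and 2.80. The peak of each motif thus lay at the centre in both classes, and DR1 was the one of the 5 plotted whose height differed by the largest factor. Since HNF4α binds DR1, that difference describes in part the selection on HNF4α peaks.

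**Figure D3:**
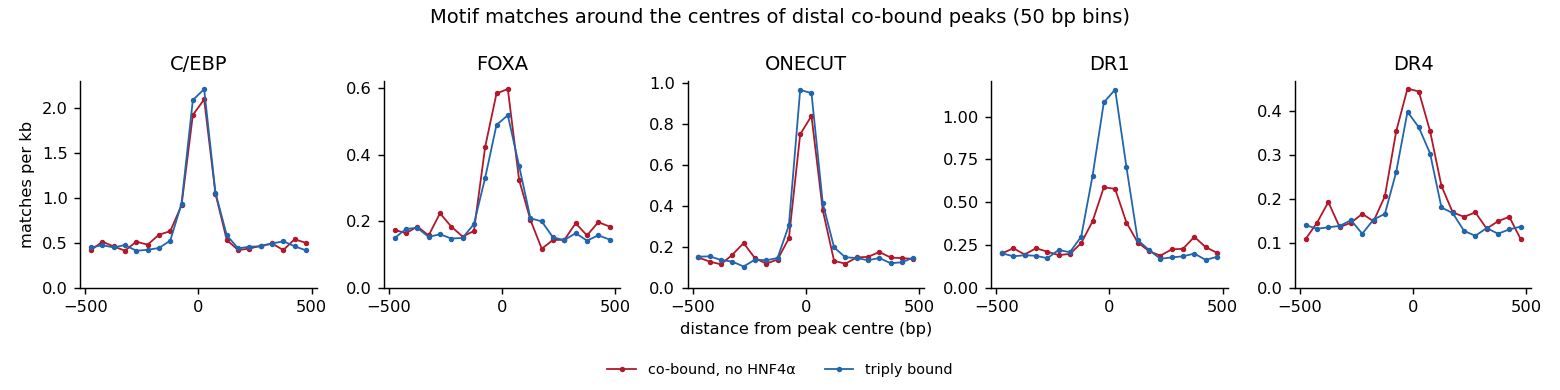
Matches per kb (y axis, from 0, scaled per panel) by distance from the peak centre in bins of 50 bp (x axis, bp) for 5 motifs, at distal co-bound sites lacking HNF4α and at triply bound sites. C/EBP profiles coincide (2.01 and 2.15 matches per kb at the centre) and the DR1 density is 0.582 at the sites lacking HNF4α against 1.12.

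Sequence words counted without any motif in mind gave a similar picture. Of the 5379 words of 7 bases, counted on both strands together, that occurred in at least 1% of the HNF4α-lacking windows, the highest ratio to the flanks was that of ATTGATC, in 4.46% of windows, 4.34 times the flanks. The word AATCGAT followed with a ratio of 4.15, the word AATCAAT with 3.85 and the word ATCAATA with 3.60, and all 4 share the letters of the ONECUT motif or its ATCGAT form. AGGTCAA (3.32) and AAGGTCA (3.01) are nuclear receptor half-sites, GTAAACA (3.30), GTCAACA (3.05) and GCAAACA (2.83) resemble the forkhead motif, TTGCCAA (3.01) and ACTTGGC (2.91) hold the NFI half-site and GTTGCAA (2.94) part of the C/EBP motif. CAAAGTC, which is part of the HNF4α core, was in the leading 12 words of the triply bound sites with 13.1% of windows and 4.18 times the flanks. At the HNF4α-lacking sites the same word had 3.90% and a ratio of 1.20. Since the 2 classes were split on HNF4α peaks, this contrast describes the selection and is no independent result. Of the leading 12 words, 4 were shared by the 2 classes.

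The PROX1-only sites without HNF4α share with the HNF4α-lacking co-bound sites the absence of HNF4α and differ in the absence of HDAC3 from the list. There are 4049 of them at distal positions. Of the 6 nuclear receptor motifs, 4 were higher at the co-bound sites, the HNF4α core was lower and DR1 did not pass the threshold. RORE was in 5.57% against 2.42% of windows (chi-square adjusted p = 2.31e-13), DR4 in 6.69% against 3.73% (adjusted p = 1.06e-09), DR2 in 5.96% against 3.24% (adjusted p = 2.81e-09) and IR1 in 3.89% against 2.40% (adjusted p = 0.000152). The IR1 call was lost in 100 bp windows and with 1 mismatch fewer, and its sign turned in the second block (-0.18 percentage points). The RORE and DR4 calls were also lost in that block (1.06 and 0.39 percentage points, chi-square adjusted p = 0.157 and 0.766). RORE and DR4 had the same sign on 19 of 20 chromosomes and DR2 on 20 of 20. DR1, in 8.06% against 7.06%, did not pass (95% CI of the difference -0.07 to 2.03, chi-square adjusted p = 0.122).

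In the other direction, 3 motifs were lower at the co-bound than at the PROX1-only sites. ONECUT was in 9.66% against 17.5% of windows, a difference of -7.87 percentage points (95% CI -9.28 to -6.50, chi-square adjusted p = 1.21e-29) with the same sign on 20 of 20 chromosomes. The glucocorticoid receptor motif was in 12.6% against 18.8% (chi-square adjusted p = 1.09e-16), a call that was lost in the second block (-3.30 percentage points, adjusted p = 0.0594). The HNF4α core was in 0.417% against 1.11% (chi-square adjusted p = 0.000152), although both classes were selected on having no HNF4α peak, and this call was lost among windows with a GC content of 45% to 55% (-0.40, adjusted p = 0.119) and in the third block (-0.71, adjusted p = 0.127). C/EBP (25.4% and 26.0%, 95% CI of the difference -2.26 to 1.22) and STAT (11.4% and 12.52%, -2.39 to 0.21) were not resolved as different. A further measure moved with these classes. A GC content of at least 50% was found in 26.9% of the co-bound and 19.9% of the PROX1-only windows (chi-square adjusted p = 5.49e-15), and its part in the motif differences beyond the GC-restricted comparison was not tested.

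HDAC3-only sites without HNF4α, of which 785 are distal, differed from the HNF4α-lacking co-bound sites in the opposite direction for DR2, DR4, RORE and ONECUT. Of the 6 nuclear receptor motifs 4 were more frequent at the HDAC3-only sites, and of the 5 hepatocyte factor motifs 2 were less frequent. DR2 was in 5.96% of the co-bound and 16.4% of the HDAC3-only windows (chi-square adjusted p = 1.64e-25), RORE in 5.57% and 12.48% (adjusted p = 7.17e-13), DR1 in 8.06% and 13.5% (adjusted p = 1.60e-06) and DR4 in 6.69% and 10.1% (adjusted p = 0.00177). The DR1 and DR4 calls were lost among windows with a GC content of 45% to 55% (chi-square adjusted p = 0.0594 and 0.0968) and in the third block (adjusted p = 0.110 and 0.788). IR1, in 3.89% and 4.71% (chi-square adjusted p = 0.342), and the HNF4α core, in 0.417% and 0.382% (adjusted p = 0.900), did not pass. The motif of the boundary factor CTCF, CCANNAGGNGGC, was in 0.350% and 1.78% (chi-square adjusted p = 6.70e-07), and the call was lost in the third block (adjusted p = 0.0686). A GC content of at least 50% was found in 26.9% of the co-bound and 38.7% of the HDAC3-only windows, a difference of -11.8 percentage points (95% CI -15.4 to -8.24, chi-square adjusted p = 3.40e-11), and its part in the motif differences beyond the GC-restricted comparison was not tested.

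Higher at the co-bound sites were C/EBP, in 25.4% against 14.9% (chi-square adjusted p = 6.32e-10), ONECUT, in 9.66% against 4.20% (adjusted p = 2.21e-06), and the glucocorticoid receptor motif, in 12.6% against 8.03% (adjusted p = 0.000833), a call that was lost with 1 mismatch fewer (adjusted p = 0.0566). In the third block the C/EBP and ONECUT calls were lost (3.55 and 1.35 percentage points, chi-square adjusted p = 0.140 and 0.354) and the sign of the glucocorticoid receptor difference turned (-0.49). FOXA, in 8.94% against 6.88% (chi-square adjusted p = 0.117), and NFI, in 1.90% against 1.66% (adjusted p = 0.711), were among the hepatocyte factor motifs that did not pass. For DR2, DR4 and RORE the HNF4α-lacking co-bound sites thus stood between the PROX1-only and the HDAC3-only sites when the blocks were pooled. Each of the 6 differences passed the threshold in the pooled blocks. RORE and DR4 calls were lost in single blocks, and a DR4 call in the GC-restricted windows, as given above. The pooled ONECUT share also stood between those of the PROX1-only and the HDAC3-only sites, in the opposite order.

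Among the HNF4α-lacking sites themselves, some motif shares varied with the distance to HNF4α. The C/EBP share was 21.9% (95% CI 19.8 to 24.1) of 1381 sites with a gap under 1 kb, 24.3% (95% CI 22.6 to 26.0) of 2475 sites from 1 to 10 kb and 29.1% (95% CI 27.2 to 31.1) of 2137 sites farther away. ONECUT was found in 7.24%, 8.97% and 12.03% in the same order. STAT was found in 9.49% (95% CI 8.05 to 11.1), 11.7% (95% CI 10.5 to 13.0) and 12.4% (95% CI 11.1 to 13.9). Under 1 kb its interval thus overlapped that of the triply bound sites, 7.56 to 8.52. The DR1 share was 8.04%, 7.72% and 8.47%, and the HNF4α core share 0.290%, 0.364% and 0.562%, with intervals that overlap. Neither share was thus set apart by distance beyond its counting error.

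The co-bound part of the lists falls into 3 blocks set apart by empty lines and not labelled. The HNF4α-lacking sites made up 27.7% of the 14556 distal peaks of the first block, 42.0% of 2256 in the second and 61.4% of 1642 in the third. Among them, C/EBP was in 27.2%, 25.2% and 18.5% of windows in this order, ONECUT in 10.4%, 11.0% and 5.56%, STAT in 12.9%, 8.45% and 8.43%, and DR4 in 6.61%, 4.12% and 9.42%. What the blocks are is not given in the sources used here. By chromosome, the HNF4α-lacking share of distal co-bound peaks ran from 29.0% on chromosome 3 to 39.6% on X, which holds 55 of them.

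The location of the HNF4α-lacking sites was close to that of the other classes. Of these sites, 3087, or 51.5%, were centred in introns, 146, or 2.44%, in exons and 2760, or 46.1%, between genes. The share inside protein-coding genes was 53.9%, against 53.4% of triply bound sites (95% CI of the difference -0.97 to 2.11, chi-square adjusted p = 0.678). They lay a median of 21.3 kb from a TSS, against 20.4 kb at triply bound, 24.1 kb at PROX1-only and 18.7 kb at HDAC3-only sites. A distance over 50 kb was found for 27.2% of the HNF4α-lacking and 30.5% of the PROX1-only sites (chi-square adjusted p = 0.00116), a call that was lost in the second block (adjusted p = 0.0501). The GC content was at least 50% in 26.9% of the HNF4α-lacking and 29.4% of the triply bound windows (chi-square adjusted p = 0.00116), a difference that did not pass when only a cover of at least 50% of the peak counted as HNF4α binding (-0.07 percentage points, adjusted p = 0.915) and not past the threshold in the second block (-2.76, adjusted p = 0.340).

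Most of the HNF4α-lacking sites had another co-bound peak nearby. The median distance to it was 3.93 kb, and 3968 sites, or 66.2%, had one within 10 kb. A triply bound distal site was within 10 kb of 3067 sites, or 51.2%, and another HNF4α-lacking site within 10 kb of 2010, or 33.5%. With sites joined over gaps of at most 0.0125 Mb, 2230 sites formed 932 clusters, 32 of them with 5 or more sites. An HDAC3-only peak was more than 100 kb away from 4563 sites, or 76.1%.

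The largest cluster had 9 sites over 39.7 kb on chromosome 4, from 53121117 to 53160806, in introns of *Abca1*, which encodes the transporter that loads cholesterol onto apolipoprotein A-I. Its sites lay from 12.1 to 51.6 kb downstream of the TSS, and the same span held 5 triply bound sites. Of the 9 sites, 3 held a C/EBP, 2 a FOXA, 1 an NFI, 1 a STAT and 1 a DR2 match, and 0 held DR1 or the HNF4α core. No match to any of the 21 motifs was found at 2 of them. The gap to the nearest HNF4α peak was from 176 to 11987 bp. The next cluster, with 7 sites over 33.2 kb, lay at *Gpam*, whose product, a mitochondrial acyltransferase, carries out the first step of triglyceride synthesis. Another, with 6 sites over 22.8 kb, lay around *Cebpa*, the gene of C/EBPα.

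Within 100 kb of a TSS lay 5144 of the sites, and they were assigned to the gene of the nearest TSS. They reached 3132 of 22372 protein-coding genes, or 14.0%, against 21.1% for the triply bound sites, which are more numerous. Of the genes, 2012 were nearest to 1 site and 103 to 5 or more. *Zmiz1*, which encodes a transcriptional coregulator, was nearest to 12 HNF4α-lacking sites and 18 triply bound sites. *Tns1*, the gene of a focal adhesion protein, was nearest to 11 and 9, *Abca1* to 10 and 8, and *Mtss1*, the gene of an actin-binding protein, to 9 and 9. *Ptpn1*, whose phosphatase acts on the insulin receptor, had 8 and 10, and the genes *AB041803* and *Gm10655* had 8 each beside 7 and 4. *Arid5b*, *Cebpa*, *Fkbp5*, *Gpam* and *Itpr1*, which encodes a calcium channel, had 7 each, beside 11, 4, 6, 8 and 15.

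**Figure D4:**
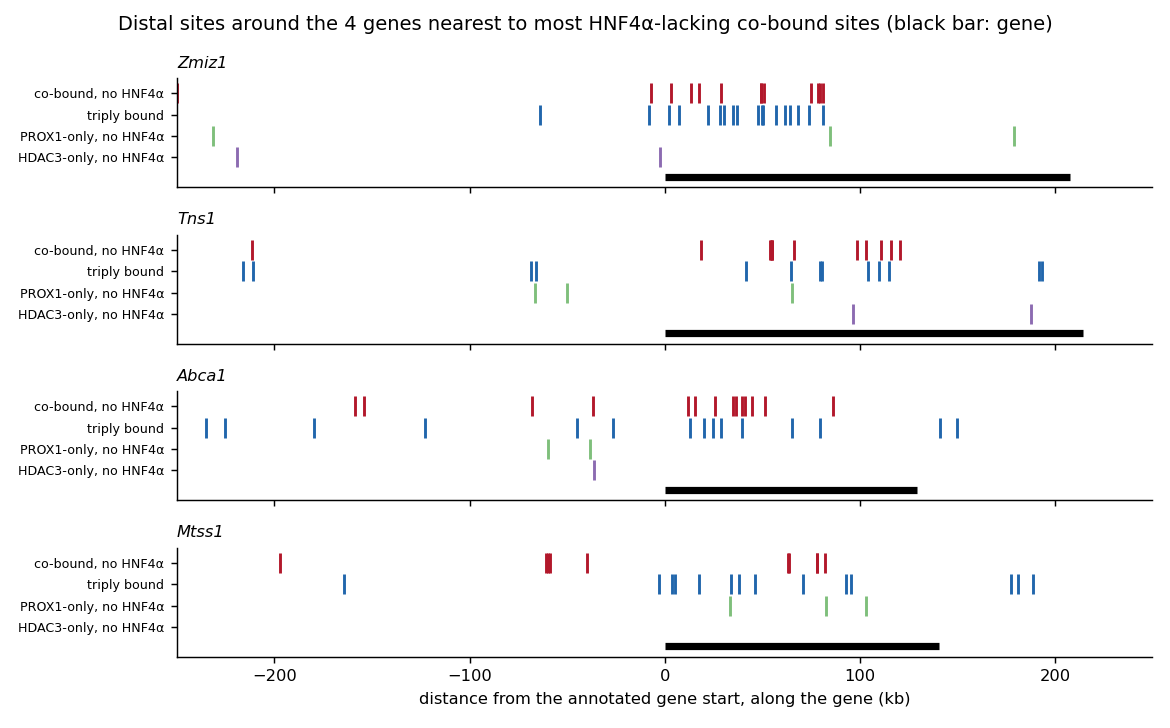
Distal sites (ticks) by class within 250 kb of the annotated starts of *Zmiz1*, *Tns1*, *Abca1* and *Mtss1*; the x axis is the distance from the gene start along the gene (kb) and the black bar is the gene. Co-bound sites lacking HNF4α and triply bound sites lie among each other at all 4 genes.

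Genes with HNF4α-lacking sites mostly had triply bound sites too. Of the 3132 genes, 2150, or 68.6%, were also nearest to a triply bound site. In the window from 50 kb upstream of the gene to 2 kb past its end, 4599 genes, or 20.6% of all, had an HNF4α-lacking site, against 30.1% for the triply bound sites, and 3301 of the 4599, or 71.8%, had both. Triply bound peaks within 1 kb of a TSS were not counted here. Of the 22372 protein-coding genes, 745 were nearest to an HNF4α-lacking site and had no distal triply bound site nearest or in the window. These genes were chosen after their values were seen. Among these, *Adam19*, a metalloprotease gene, and *Gm12033* were nearest to 5 sites, and *Ahcyl2*, *Gprc5c*, *Rlf* and *Sidt2* to 4.

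The genes of 17 lists were then read for their nearest distal sites, so co-bound peaks within 1 kb of a TSS were not counted. The lists name genes of liver functions, most of which are active in hepatocytes, so shares above the 14.0% of all genes are not particular to a list. Of 6 hepatocyte markers, 5 were nearest to an HNF4α-lacking site, among them *Alb*, *Apoa1* and *Tat*. Of 5 macrophage and 4 leukocyte markers 0 were, of 6 stellate cell markers 1, of 6 endothelial markers 2 and of 4 cholangiocyte markers 2. By window, the counts were 5 for hepatocyte, 1 for macrophage, 1 for leukocyte and 2 for endothelial markers. They were 0 for stellate cell and 0 for cholangiocyte markers, so the order of the cell types depends on the measure. Binding near a gene is no measure of its expression, and the share of other cell types in these livers was not tested.

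By nearest gene, the glucocorticoid response genes had the largest share, with 17 of 19, the same as for triply bound sites. *Fkbp5*, whose product is a co-chaperone of the glucocorticoid receptor, had 8 HNF4α-lacking sites in its window and 6 triply bound ones, *Zbtb16* 8 and 7, *Ddit4* 7 and 2 and *G6pc* 5 and 5. Of 23 hepatocyte transcription factor genes 18 were nearest to an HNF4α-lacking site and 21 to a triply bound site. *Ppara* had 4 HNF4α-lacking sites in its window beside 12 triply bound ones, *Cebpa* 3 beside 5, and *Hnf4a* itself 3 beside 4. Of 12 genes of the growth hormone and STAT5 response 8 were nearest to an HNF4α-lacking site, and *Stat5b* had 6 in its window, *Igf1* 5, *Socs2* 4 and *Cux2* 3, beside 7, 8, 4 and 2 triply bound sites.

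Of 21 clock genes 12 were nearest to an HNF4α-lacking site and 13 to a triply bound site. *Rora* had 10 in its window beside 20 triply bound sites, *Per2* 5 beside 4 and *Nfil3* 4 beside 4. *Nr1d1* had 4 beside 0 distal triply bound sites. In the HDAC3-NCoR complex 3 of 6 genes were nearest to an HNF4α-lacking site. Their windows held 3 such sites at *Tbl1xr1* and 2 at *Tbl1x*, beside 5 and 1 triply bound sites. By window, HNF4α-lacking and triply bound sites reached 15 and 18 of the glucocorticoid response genes, 7 and 10 of the growth hormone genes, 14 and 13 of the clock genes and 3 and 4 of the HDAC3-NCoR genes.

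Metabolic lists were counted in both ways, and no difference between the site classes was tested. Triply bound sites also reach more of all genes. Of 16 lipogenesis genes 11 were nearest to an HNF4α-lacking and 15 to a triply bound site, of 14 bile acid genes 9 and 13, of 16 insulin signalling genes 10 and 13, and of 20 acute phase genes 9 and 15. Of 20 genes of fatty acid oxidation and ketogenesis 10 and 14 were reached, and of 25 triglyceride and lipid droplet genes 12 and 15. By window the numbers were 11 and 16 for lipogenesis, 9 and 14 for bile acid, 11 and 15 for insulin signalling and 14 and 20 for acute phase genes, whereas they were equal for fatty acid oxidation, with 13 each, and for triglyceride genes, with 18 each. By sites in the window, the lipogenesis genes *Acacb* and *Insig1* had 3 HNF4α-lacking sites each, beside 2 and 3 triply bound ones, whereas *Elovl6*, a fatty acid elongase gene, had 2 beside 6. *Gpam* had 7 beside 10, *Dgat2*, which acts in the last step of triglyceride synthesis, 4 beside 11, and *Lpin1* 4 beside 4. *Acot1*, an acyl-CoA thioesterase gene, had 4 beside 0 distal triply bound sites and *Pdk4*, whose kinase restrains glucose oxidation, 3 beside 1. *Insr*, the insulin receptor gene, had 5 beside 6, *Lcn2* 5 beside 2 and *Abcb4*, a bile phospholipid transporter gene, 3 beside 5. For *Lcn2*, no site of either class had it as the nearest gene.

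**Figure D5:**
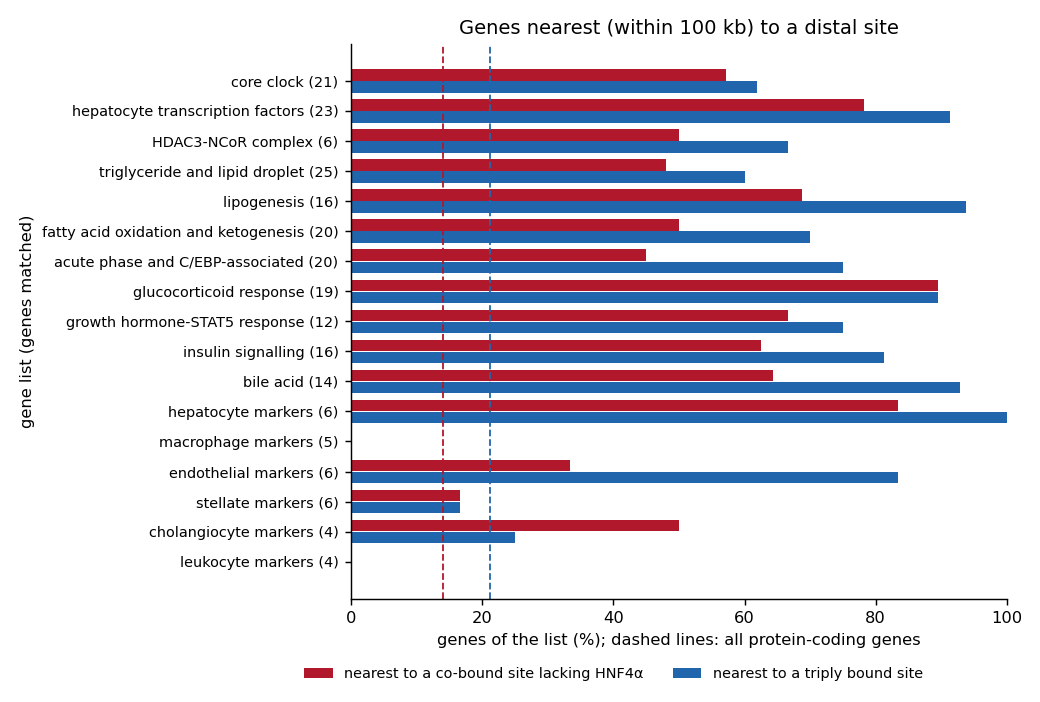
Share of the genes of each list (y axis, with the number of genes matched) that are the nearest gene within 100 kb of at least 1 distal co-bound site lacking HNF4α (red bars) or triply bound site (blue bars); x axis in %, from 0. Dashed lines give all protein-coding genes, 14.0% and 21.1%; macrophage and leukocyte markers have no bar.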

How the data were processed

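ChIP-seq libraries of HDAC3 and PROX1 from control livers and of HNF4α from floxed control livers were analysed as 1 peak list per factor. For each factor, reads had been mapped to mm9 by the authors using Bowtie 0.12.7. They removed duplicates, pooled replicates, called peaks with HOMER against IgG and kept peaks above limits of enrichment and of normalized reads. The deposited HDAC3 and PROX1 lists hold positions, and the deposited HNF4α list also holds the authors' HOMER score. Peaks at the same position in both lists were taken as co-bound, which is inferred from the lists. Sites were annotated with GENCODE genes of NCBIM37. Genes named are the 12 nearest to most sites and up to 4 per list by sites in the window. The sites, motifs and gene lists were chosen with earlier results of these data known.

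Classes were compared by a two-sided Pearson chi-square, uncorrected for continuity and Benjamini-Hochberg adjusted over 63 motif and over 12 sequence and location comparisons, at a threshold of 0.05. Shares carry Wilson intervals and differences Newcombe intervals. Code was tested on simulated data. Tests used scipy 1.17.1 in Python 3.11.15, tables pandas 2.3.3 with numpy 2.4.6, sequences pysam 0.24.0 and figures matplotlib 3.10.9. Alternatives changed the HNF4α rule, the TSS limit, windows, blocks, thinning, chromosome X, GC range, mismatches and the correction. Blocks 2 and 3 were added after the data had been seen. Knockout and other measurements were not analysed here, and 1 motif and some genes of the lists are not reported here.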

Additional observations from a re-analysis of the deposited data

How the results depend on the processing

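The number of sites depends on what counts as HNF4α binding. It was 5993 as reported and 7037 when HNF4α had to cover at least 50% of the peak. It was 4781 with no HNF4α peak centre within 1 kb of the centre of the site, and 10396 when only HNF4α peaks above the median score counted. Of 26 differences past the threshold, recomputed under 11 or 15 alternatives each (370 values), 9 stayed on the same side under every one run for them, among them ONECUT and DR2 against PROX1-only and RORE against HDAC3-only sites. The 9 also include the HNF4α core and DR1 against triply bound sites. Those differences describe, for DR1 in part, the selection on HNF4α peaks, and their stability is no independent result. Of the values, 336 kept direction and side, 30 no longer passed and 4 turned. These were DR2 against triply bound sites with 1 mismatch fewer (0.15 percentage points), IR1 against PROX1-only sites in the second block (-0.18), and in the third block ONECUT against triply bound (1.45) and the glucocorticoid receptor motif against HDAC3-only sites (-0.49). The second and the third block, chosen as alternatives after seeing the data, hold fewer sites than the first and account for 9 lost calls each. In the third block the motifs past the threshold numbered 2 against 6 for triply bound and 2 against 8 for HDAC3-only sites, and in the second 4 against 7 for PROX1-only sites, with 3 against 5 sequence and location differences. The motifs past the threshold numbered 10 against 6 for triply bound sites in 300 bp windows, and 11 against 7 for PROX1-only sites when only HNF4α peaks above the median score counted. With gaps of 5 kb in place of 0.0125 Mb, 1462 sites in place of 2230 lay in clusters. Genes reached were 2815 within 50 kb in place of 3132. The cause of these changes was not tested. The alternative without repeats and the repeat share were not run, since the genome used carries no repeat marking. No paired analysis was possible because the lists were made from pooled libraries and their columns carry no replicate numbers, and no library could be left out. Depth per library is unknown.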
